A study of Mus musculus with 108 samples.

Results

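Distal open-chromatin fragments that overlap protein-coding exons and were recovered from a reporter screen in differentiating mouse embryonic stem cells are described here. Overlapping distal fragments of the 95 libraries from sorted cells were merged into 58916 sites on mm10 (GRCm38). A site was kept when 1 bp or more of it lay on coding sequence of a protein-coding gene in GENCODE M21, whatever its reporter activity. This gave 4162 sites, or 7.06% of all sites, and 27272 intronic, 23455 intergenic and 4027 other exonic sites were left for comparison. The rule used position and no value of activity or stage. A site is a merger of listed fragments, however, so sites with more of them tend to be wider and reach coding sequence more easily. Membership is thus not independent of how often a site was listed, and coding overlap also bears on its sequence.

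Tn5 fragments of open chromatin from 5 stages of blood development were cloned into pDONR and then into the pSKB reporter, upstream of an HSP68 minimal promoter and Venus YFP. The cassette was placed in the Hprt locus of HM-1 mouse ES cells, a line whose HPRT is non-functional until recombination repairs it, and the cells were differentiated in serum. ES cells, FLK1+ hemangioblast cells (HB), a first hemogenic endothelium that was KIT+ TIE2+ CD41- (HE1), a second that was KIT+ TIE2+ CD41+ (HE2) and hematopoietic progenitors that were KIT+ TIE2- CD41+ (HP) were sorted by YFP. For HE1, HE2 and HP, sorted FLK1+ cells had been cultured on in a medium containing VEGF and IL-6. Replicates 1 to 4 held Negative, Low, Medium and High gates, and replicate 5 held Negative, Low and a joint Medium/High gate. Every group carried the same reporter in the same cell line, and the Negative gate served as the control for the YFP-positive gates. Replicates are numbered samples of a group, and the labels do not say that they were separate differentiations, so the p-values measure the spread between these samples, which may be technical.

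Coding exons carry the triplets that are translated, yet the same DNA can be bound by transcription factors and can act as an enhancer, so a sequence may be read in both ways. Such exonic enhancers are known in several developmental genes and may act on their host gene or on a neighbour. In a reporter the exon is removed from its transcript, so its activity there reflects the DNA and not the protein it encodes. A fragment found in YFP-positive cells is called positive below, and a set is the union of the positive gates of 1 stage and 1 replicate, which gives 25 positive sets.

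Of the sites described in detail, 6 are shown by the cloned fragment that most libraries listed. Phf19 is shown as the site called between reporter gates at HE1, and Ngfr as the site positive in most sets. Spi1, Tal1, Nos3 and Klf4 are shown as sites of the lists of blood transcription factors, endothelial genes and pluripotency genes. The choice thus rests in part on the values of these sites. All sequences are on the plus strand of mm10, coding bases are in capitals and all other bases in lower case. All 6 fragments were identical to a fragment of the plasmid lists and none was in an HM-1 control list. Phf19 encodes a Polycomb-like subunit of PRC2, the complex that methylates histone H3 at lysine 27, and its fragment at chr2:34905290-34905502 held 53 coding bases of 213. Ngfr encodes the p75 neurotrophin receptor, and the 300 bases shown of its 334 bp fragment lay at chr11:95577963-95578262 and were found in 17 libraries. Spi1 encodes PU.1, the myeloid and lymphoid ETS factor, and its fragment at chr2:91115144-91115355 was coding throughout its 212 bases. Tal1 encodes a bHLH factor required for blood specification, and its fragment at chr4:115063145-115063346 was also wholly coding with a GC content of 76.73%. Nos3 encodes endothelial nitric oxide synthase, and the 300 bases shown of its 375 bp fragment at chr5:24383181-24383480 cross 1 whole coding exon. Klf4 encodes a pluripotency factor, and its wholly coding fragment at chr4:55530350-55530535 held the letters searched for TEAD (CATTCC on either strand).
Phf19: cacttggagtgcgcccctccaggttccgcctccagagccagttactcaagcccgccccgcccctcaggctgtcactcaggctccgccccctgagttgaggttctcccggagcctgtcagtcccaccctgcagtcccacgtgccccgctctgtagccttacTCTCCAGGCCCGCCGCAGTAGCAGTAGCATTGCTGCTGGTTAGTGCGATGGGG
Ngfr: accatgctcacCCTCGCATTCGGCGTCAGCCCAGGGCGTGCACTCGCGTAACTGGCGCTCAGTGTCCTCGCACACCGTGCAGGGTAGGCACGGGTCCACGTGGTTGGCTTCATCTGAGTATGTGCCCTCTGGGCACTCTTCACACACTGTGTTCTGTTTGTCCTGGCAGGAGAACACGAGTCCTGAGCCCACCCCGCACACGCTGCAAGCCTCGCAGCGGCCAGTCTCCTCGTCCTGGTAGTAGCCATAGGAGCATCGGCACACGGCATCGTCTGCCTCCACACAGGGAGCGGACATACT
Spi1: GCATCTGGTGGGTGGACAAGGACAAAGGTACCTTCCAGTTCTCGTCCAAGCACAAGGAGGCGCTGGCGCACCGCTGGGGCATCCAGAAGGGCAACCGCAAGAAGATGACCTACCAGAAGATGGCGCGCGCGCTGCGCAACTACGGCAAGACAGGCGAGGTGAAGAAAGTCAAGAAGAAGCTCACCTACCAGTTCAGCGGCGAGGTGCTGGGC
Tal1: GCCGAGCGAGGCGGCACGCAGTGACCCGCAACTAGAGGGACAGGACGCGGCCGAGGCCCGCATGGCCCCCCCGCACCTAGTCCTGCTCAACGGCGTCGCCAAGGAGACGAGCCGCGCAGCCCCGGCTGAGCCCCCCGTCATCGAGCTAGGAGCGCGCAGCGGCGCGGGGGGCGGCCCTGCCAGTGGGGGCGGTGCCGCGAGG
Nos3: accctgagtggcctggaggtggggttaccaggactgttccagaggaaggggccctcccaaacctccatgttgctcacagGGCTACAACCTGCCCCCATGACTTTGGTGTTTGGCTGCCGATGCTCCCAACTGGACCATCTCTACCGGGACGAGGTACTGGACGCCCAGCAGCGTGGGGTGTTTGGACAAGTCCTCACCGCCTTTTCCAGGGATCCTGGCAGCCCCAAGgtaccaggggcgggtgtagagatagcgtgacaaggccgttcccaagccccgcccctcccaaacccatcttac
Klf4: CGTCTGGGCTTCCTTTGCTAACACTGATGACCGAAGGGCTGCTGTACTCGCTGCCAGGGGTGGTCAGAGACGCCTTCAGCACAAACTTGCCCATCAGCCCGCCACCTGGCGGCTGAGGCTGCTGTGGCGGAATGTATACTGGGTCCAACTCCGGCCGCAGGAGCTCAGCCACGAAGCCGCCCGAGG

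The libraries differed in size far more by replicate than by stage. They listed between 126 and 45186 distal fragments each, with medians of 16055, 11798.5, 517.5, 506 and 371 in replicates 1 to 5. Each list holds distinct fragments without read counts, so a site's level is a number of different fragments and not an abundance. Of the listed distal fragments, 85.5% had an exact match among the plasmid fragments, and 4072 (0.570%) had one in an HM-1 PCR control. Some libraries shared most of a list: 83.04% of the smaller list was shared between HE1 Negative replicate 3 and HE1 Low replicate 4, and 78.53% between HE1 Negative replicate 1 and HE1 Medium replicate 2. Class shares and tests that rest on HE1 are therefore also given without those 4 libraries. Sharing also crossed stages, with 63.28% between HP Negative replicate 3 and HE1 Low replicate 4. It was 50.12% between HP Medium replicate 1 and HE1 Medium/High replicate 5, and 46.94% between HE2 Negative replicate 3 and HE1 Low replicate 4. Of these libraries only HE1 Low replicate 4 was left out, so that setting does not remove all sharing.

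Most of the sites ran beyond the coding exon. The median site held 132 coding bases (quartiles 78 and 218), or 31.93% of its length, and 379 sites (9.106%) were coding throughout. Coding sequence covered 50% or more of the length in 1268 sites (30.47%), whereas 567 sites held fewer than 50 coding bases. A start codon lay in 353 sites (8.481%) and a stop codon in 737 (17.71%). Several exons were packed into some of them, with 596 sites (14.32%) touching 2 or more coding exons of the gene's main transcript and up to 7 in 1 site.

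Internal coding exons held 2816 sites (67.66%), last coding exons 757 (18.19%), first coding exons 245 (5.887%) and single-exon genes 125 (3.003%). The other 219 sites (5.262%) lay on coding sequence of another transcript of the gene. Coding bases were also counted, taking from each site only the main-transcript exon with the largest overlap. Further exons touched by a site and the sites on another transcript were left out, which weights the count towards long exons. Last exons held 27.76% of the bases so counted, against 14.42% of all coding bases. First exons made up 7.695% of them against 9.944% of all, and internal exons 56.8% against 65.93%. The authors had taken fragments near promoters out of the distal lists. Sites per 100 kb of coding sequence ranged from 9.308 on chromosome 13 to 19.31 on chromosome 11 among the autosomes, and the X chromosome held 38 sites, or 2.784 per 100 kb.

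The authors' distal class still contained transcript starts of the annotation used here. In all, 1716 sites (41.23%) lay within 1500 bp of some annotated transcript start and 716 lay over one, while 703 (16.89%) lay within 1500 bp of a start of a protein-coding transcript. The corresponding share within 1500 bp of any start was 10.24% for intronic and 4.737% for intergenic sites. Sites over a start had a median width of 654 bp, and 41.34% were positive at all 5 stages. Between 1501 and 5000 bp from a start the width was 446 bp and 21.45% were positive at all 5 stages, and beyond 20000 bp the share was 12.76%. By coding content, 29.87% of the 1617 sites under 25% coding (median width 588 bp) and 7.916% of the wholly coding sites (254 bp) were positive at all stages.

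A coding-exon site was found in 3233 of 21951 protein-coding genes (14.73%). A single site was present in 2530 of them, 2 sites in 541 and 3 or more in 162, and 38 sites covered coding sequence of 2 or more genes. The genes with a site were longer, with a median coding length of 1863 bp against 1173 bp for all protein-coding genes. Ryr1, the calcium release channel of skeletal muscle, had 8 sites over 15183 coding bases, and Myh14, a non-muscle myosin heavy chain, had 8 over 6099. Sptbn4, a spectrin of axon initial segments, had 7 sites, of which 6 were positive at ES, 6 at HB and 2 each at HE1 and HP. Myh7b, Ltbp4 and Cacna1a had 6 each, and Exoc3l4, Flt4, Myo18a and Unc13a had 5 each. Flt4, the lymphatic VEGF receptor, was the 1 gene among these 10 that was also on the endothelial list, and its 5 sites were positive in a median of 2 sets.

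The lists of blood and endothelial genes were described against the 14.73% of all protein-coding genes. Of 32 blood surface and effector genes 16 (50%) held a site, of 36 endothelial genes 17 (47.22%) and of 35 blood transcription factors 14 (40%). Collagen genes reached 40.91% (18 of 44), with a median coding length of 4616 bp. Chromatin regulators reached 26% (13 of 50), mesoderm and cardiac genes 23.53% (4 of 17), AP-1, TEAD and YAP genes 20% (4 of 20), protocadherins 19.12% (13 of 68) and pluripotency genes 14.29% (3 of 21). Hox genes were at 12.82% (5 of 39) and zinc-finger protein genes at 10.14% (37 of 365). A site was found in 1 of 1092 olfactory receptor genes and in 0 of 80 ribosomal protein genes, whose median coding lengths were 939 bp and 462 bp. Scaled to length, the order differed. Per 10000 coding bases, 209.2 lay in sites over all genes, against 804.8 for blood transcription factors, 690.6 for endothelial, 643 for pluripotency and 429.6 for blood surface genes, and 124.5 for collagens and 96.53 for chromatin regulators. Mesoderm and cardiac genes were at 537.2, Hox genes at 371.8 and AP-1, TEAD and YAP genes at 248.2. Protocadherins were at 209.9, zinc-finger protein genes at 179.6 and olfactory receptor genes at 2.727. The pluripotency value rests on 3 sites, with 985 coding bases in Klf4, 671 in Tbx3 and 25 in Sall4. These lists were described by counts and were not tested.

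The sites of each list were then counted by stage. Of the 16 sites of blood transcription factors, 13 were positive at ES, 13 at HB, 6 at HE1, 5 at HE2 and 7 at HP. The 18 sites of blood surface genes went from 7 at ES and 9 at HB to 11 at HE1, 10 at HE2 and 9 at HP. The 30 sites of endothelial genes lay between 13 and 16 at every stage. The 19 sites of chromatin regulators were positive at 8, 3, 10, 12 and 8 in the order ES, HB, HE1, HE2 and HP, and over all 4162 sites the numbers were 2055, 2375, 2152, 2234 and 2275.

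Coding-exon sites were positive in more sets than intronic or intergenic sites. They were positive in a median of 4 of the 25 sets, against 2 for both other classes, and 860 (20.66%) were positive in 10 or more sets, against 5.815% of intronic and 8.156% of intergenic sites. All 5 stages were positive for 1004 sites (24.12%), against 7.264% and 10.73%. The other exonic sites were close, with a median of 3 sets, 17.61% positive in 10 or more sets and 19.77% at all stages. Reporter-negative cells listed them as well: 3014 sites (72.42%) had a fragment in a Negative list, against 57.38% of intronic and 58.9% of intergenic sites. A fragment in some positive list and in no Negative list was found for 1148 sites (27.58%), against 42.62% of intronic sites, and 153 sites were in Negative lists alone.

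The comparison was repeated within each replicate over the union of all stages. Coding-exon sites with a positive fragment made up 83.4%, 77.49%, 42.6%, 13.98% and 9.274% in replicates 1 to 5. Intronic sites reached 75.44%, 65.61%, 22.36%, 5.687% and 3.982%, and intergenic sites 75.92%, 66.89%, 25.4%, 6.86% and 4.775%. Coding-exon sites were higher in 5 of 5 replicates, by 10.73 percentage points (SD 5.808, n = 5) over intronic and by 9.378 (SD 4.877, n = 5) over intergenic sites. The exact two-sided sign-flip permutation test gave p = 0.063 for both, before and after adjustment, which is the smallest value that 5 pairs allow and cannot pass 0.05. Without the 4 HE1 libraries the differences were 11.12 and 9.818 percentage points, and 23.86% of coding-exon sites were positive at all stages against 7.15% and 10.57%. The same difference was present in Negative cells, where it was 10.54 and 9.198 percentage points.

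The contrast was smaller between sites of like width. Coding-exon sites had a median width of 466 bp (quartiles 265 and 690), against 278 bp for intronic and 287 bp for intergenic sites. Width is not independent of activity, since a site is a merger of the fragments that were listed for it. Among sites of 200 to 400 bp the coding-exon sites reached 71.16%, 59.15%, 20.16%, 3.643% and 2.481% in replicates 1 to 5, and intronic sites 71.6%, 59.25%, 15.02%, 2.665% and 2.112%. The differences at that width were 1.189 percentage points (SD 2.271, n = 5, exact sign-flip p = 0.375) over intronic and 0.8739 (SD 1.952, n = 5, exact sign-flip p = 0.5) over intergenic sites, with 3 of 5 replicates higher in each. In wider sites the exonic classes were higher: of sites of 400 to 799 bp, 31.78% of coding-exon, 17.04% of intronic and 23.55% of intergenic sites were positive at all 5 stages, and at 800 to 1599 bp 64.54%, 39.36% and 51.92%. The other exonic sites were at 28.68% and 63.11% in those bands, near the coding-exon sites. Under 200 bp the shares were 0.2075%, 0.215% and 0.5567%.

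**Figure D1:**
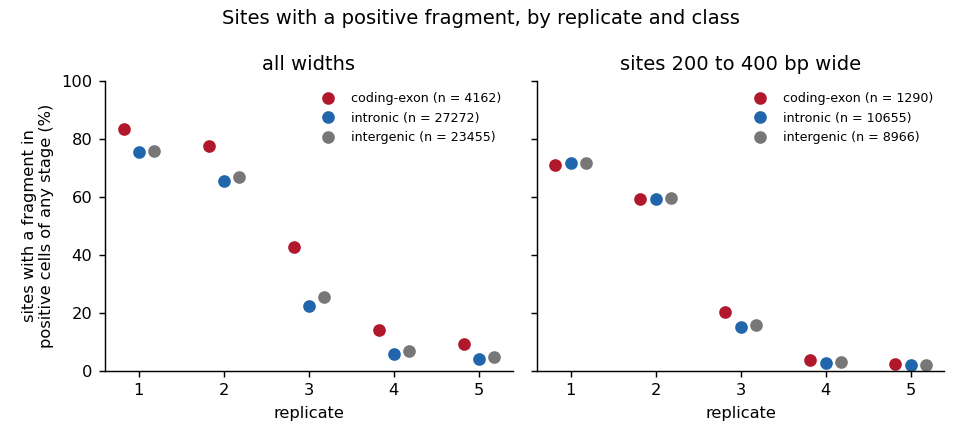
Points give the percent of sites with a fragment in positive cells of any stage (vertical axis) in each replicate (horizontal axis), for coding-exon, intronic and intergenic sites of all widths (left) and of 200 to 400 bp (right). Coding-exon sites are highest in all 5 replicates on the left, and on the right they exceed intronic sites in 3 of 5.

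**Figure D2:**
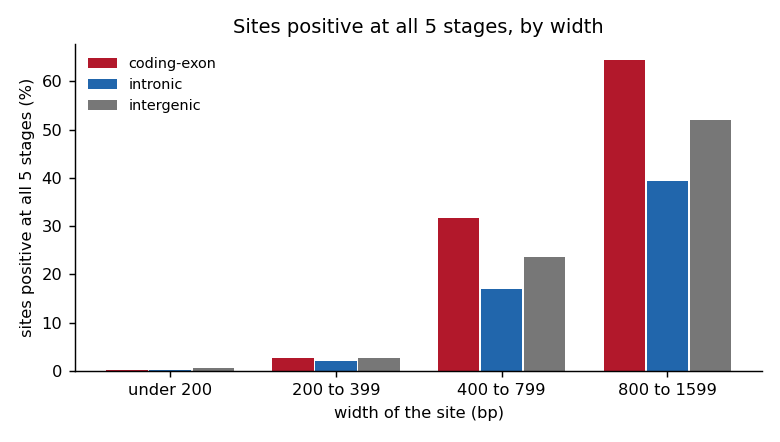
Bars give the percent of sites positive at all 5 stages (vertical axis) in 4 bands of site width in bp (horizontal axis) for coding-exon, intronic and intergenic sites. All classes rise with width, and at 400 to 799 bp the coding-exon bar stands at 31.78% against 17.04% and 23.55%.

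The stages differed in how far coding-exon sites stood from the other classes. At ES 49.38% of coding-exon sites were positive against 23.68% of intronic and 29.44% of intergenic sites, and at HB 57.06% against 31.35% and 36.34%. At HE1 the 3 classes were at 51.71%, 49.78% and 51.63%, or 49.52%, 44.49% and 46.51% without the 4 libraries with shared lists. At HE2 they were at 53.68%, 47.25% and 47.56%, and at HP at 54.66%, 39.36% and 39.69%. The coding-exon share lay between 49.38% and 57.06% at every stage, while the intronic and intergenic shares were lowest at ES. These shares also depend on depth, which differed by stage. In replicates 1 and 2 positive cells listed 24207 and 24858 distal fragments at ES, and 79799 and 67575 at HE1. At HE1 the coding-exon share was 1.167 and 1.181 times the intronic share in these replicates, and 1.858 to 2.665 times in replicates 3 to 5. The part of depth in the stage difference was not tested.

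The stages were also compared at matched width within replicates. Among sites of 200 to 400 bp at ES, the percent of coding-exon sites positive was 1.886 to 2.573 times that of intronic sites in the 5 replicates (median 2.09). At HE1 it was 0.6068 to 0.901 times (median 0.6865), so the ES and HE1 ranges did not overlap. Without the 4 HE1 libraries the HE1 ratio was 0.6608 to 1.967 (median 0.6966), where replicate 4 alone lay above 1 and within the ES range, with 0.3876% of coding-exon and 0.1971% of intronic sites positive. In replicate 1, for instance, 20.31% of coding-exon and 10.25% of intronic sites were positive at ES, and 20.47% and 29.82% at HE1. At HB the ratio had a median of 1.509, with 0.6883 in replicate 5 as the lowest, at HE2 a median of 0.7843 and at HP of 1.001. In replicate 5 HB was thus below HE1, and in replicate 4 HE2 (1.475) was above HP (0.8787), so the order of the stages other than ES was not shared by all replicates. Against intergenic sites the ratio was 1.607 to 1.914 at ES and 0.5941 to 0.993 at HE1, or 0.6546 to 1.655 without the 4 libraries. These ratios were compared as a description and were not tested, and the 3 smallest replicates rest on few sites.

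Among the coding-exon sites 1325 (31.84%) were positive at a single stage, against 47.51% of intronic and 45.24% of intergenic sites. Of the 1325, 374 (28.23%) were positive at ES alone, 374 (28.23%) at HB alone, 178 (13.43%) at HE1 alone, 145 (10.94%) at HE2 alone and 254 (19.17%) at HP alone. Intronic sites positive at 1 stage were divided differently, with 16.54% at ES, 20.91% at HB and 26.43% at HE1. Without the 4 HE1 libraries the HE1 shares were 11.27% of coding-exon (148 of 1313), 21.1% of intronic and 21.35% of intergenic single-stage sites. ES and HB together were the commonest pair for coding-exon sites, with 245 sites (5.887%, against 2.006% of intronic sites), and HE1 and HE2 together held 185 (4.445%, against 9.138%). Most single-stage sites rested on thin data: 912 were positive in 1 replicate and 413 in 2 or more, 420 were also in a Negative list of their own stage and 80 in a Negative list of another stage.

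**Figure D3:**
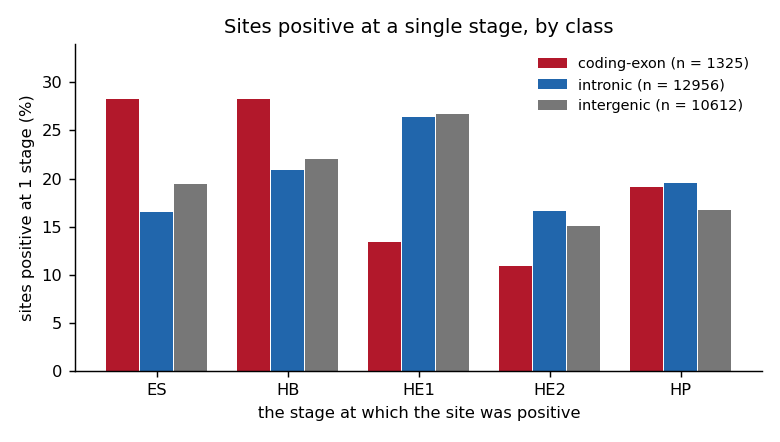
Bars give, for the sites of each class that were positive at a single stage, the percent positive at each of the 5 stages (horizontal axis). Coding-exon sites stand highest at ES and HB (28.23% each) and intronic sites at HE1 (26.43%).

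Absence from a stage's lists has more than 1 possible reading. Between 1716 (HB) and 1987 (HE1) coding-exon sites were in no list of a stage, positive or Negative. At HE1 1866 of these 1987 sites were nevertheless present in the pDONR list made from that stage, and at ES 1739 of 1942. The study's methods kept only fragments in ATAC-seq peaks and do not say of which stage, so closed chromatin, lack of activity and lack of recovery cannot be told apart for a site that is not listed. All 4162 sites were in a pDONR list and 4117 (98.92%) in a pSKB list, so nearly all had entered the reporter.

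The share of distal fragments that lay in coding-exon sites had its highest mean at ES and its lowest at HE1. In positive cells the share was 16.1%, 16.14%, 14.53%, 14.96% and 19.32% at ES in replicates 1 to 5, and 14.71%, 14.95%, 14.76%, 15.21% and 13.88% at HB. At HE1 it was 11.61%, 10.8%, 11.13%, 15.62% and 11.34%, where replicate 4 lay above the other 4 replicates. At HE2 it was 10.94%, 11.58%, 12.01%, 13.8% and 13.72%, and at HP 12.85%, 13.29%, 14.35%, 13.61% and 13.2%. The HP values all lay between the HE1 replicate 4 value and the other HE1 values.

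The means were 16.21% ± 1.874 (SD, n = 5) at ES, 14.7% ± 0.4975 at HB, 12.1% ± 1.988 at HE1, 12.41% ± 1.291 at HE2 and 13.46% ± 0.5648 at HP. From HB to HE1 the difference was -2.603 percentage points, lower in 4 of 5 replicates, with an exact permutation p = 0.04762 and an adjusted p = 0.1746 over 4 tests. The step from ES to HB was -1.506 points (exact permutation p = 0.0873, adjusted p = 0.1746), or -0.5248 without replicate 5, that from HE1 to HE2 0.3065 (exact permutation p = 0.7937) and that from HE2 to HP 1.053 (exact permutation p = 0.1349, adjusted p = 0.1799). None passed after adjustment with all listed fragments. With only the fragments identical to a plasmid fragment, the HB to HE1 difference was -3.275 points (exact permutation, adjusted p = 0.03175). Without the 4 HE1 libraries with shared lists it was -2.447 points (exact permutation, adjusted p = 0.1746).

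The plasmid lists also had lower shares at HE1 and HE2 than at ES and HB, but were nearly equal at ES and HB. In the pDONR lists the share was 16.16% for ES, 16.25% for HB, 12.15% for HE1, 12.53% for HE2 and 14.13% for HP, and in the pSKB lists 16.86%, 16.81%, 12.75%, 13.38% and 14.74%. There was 1 plasmid list per stage and kind, without replicates. The sorted lists combine fragments recovered from cells with a filter on open chromatin, and the part of the plasmid pool's composition in the stage difference was not tested.

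**Figure D4:**
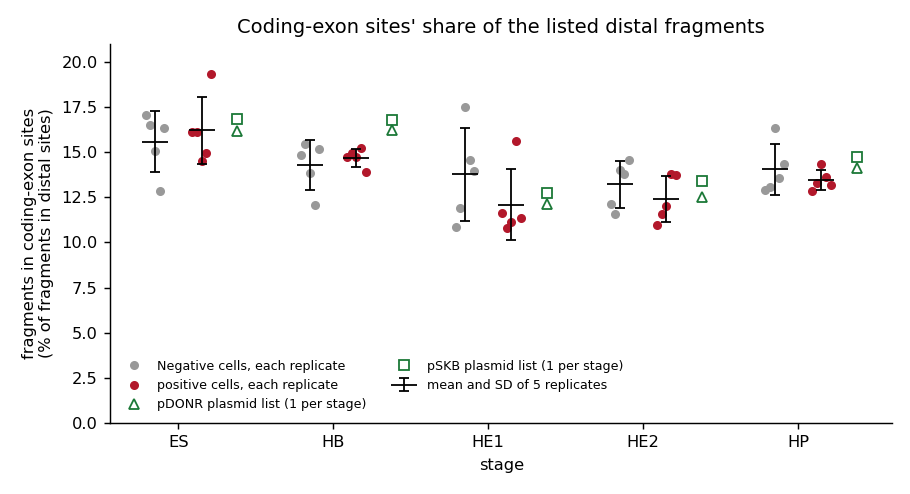
Points give the percent of fragments in distal sites that lay in coding-exon sites (vertical axis) for each replicate of Negative and positive cells at each stage, with mean and SD of 5 replicates, and open symbols give the single pDONR and pSKB plasmid lists. The positive means run from 16.21% at ES to 12.1% at HE1, and the pDONR lists from 16.16% to 12.15%.

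Within a stage the share did not separate the YFP gates. In Negative cells the means were 15.57% ± 1.698 (SD, n = 5) at ES, 14.27% ± 1.388 at HB, 13.77% ± 2.578 at HE1, 13.22% ± 1.286 at HE2 and 14.05% ± 1.391 at HP. Positive minus Negative was 0.6369, 0.4344, -1.668, -0.8095 and -0.5884 percentage points in that order. The exact permutation tests gave p = 0.6111, 0.6508, 0.3175, 0.2698 and 0.5079, and an adjusted p of 0.6508 in all 5. At HE1, without the 4 libraries with shared lists, the difference was -1.238 points, and without replicate 3 it was -0.4915. Cells with high YFP (Medium, High and Medium/High gates) had means of 15.98%, 14.79%, 12.28%, 12.13% and 13.72% from ES to HP, and cells with low YFP 15.78%, 14.78%, 12.01%, 12.94% and 13.37%. High minus low was 0.1963, 0.0116, 0.2737, -0.807 and 0.354 points, with an adjusted p of 0.9524 in all 5 by the exact permutation test. At HE1 that difference was 1.311 points without the 4 libraries, and the adjusted p was 0.7937 by the exact permutation test. Of all coding-exon sites 3800 had a fragment in a high gate, 2868 in a Low gate and 2659 in both.

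The coding share of the positive fragments was at or above that of the sites. Coding bases made up 35.83% of the site bases, and 41.06%, 40.64%, 36.02%, 35.92% and 37.85% of the bases of positive fragments from ES to HP. In Negative cells the shares were 42.8%, 41.5%, 37.18%, 38.12% and 38.89%. Negative fragments were the more coding at all 5 stages, a difference that was not tested.

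Single sites were compared with limma on log2 of fragments per 10000 listed fragments plus 1, over every distal site listed in 4 or more of the 10 sets of a comparison. Between adjacent stages no coding-exon site passed an adjusted p of 0.05, nor did any other site, so the background was 0% in all 4 steps. At an unadjusted p under 0.05, 29 of 1171 coding-exon sites passed from ES to HB (3.46% of all sites tested) and 27 of 1173 from HB to HE1 (1.87% of all). From HE1 to HE2 5 of 1346 passed (0.105% of all) and from HE2 to HP 1 of 1133 (0.0354% of all). Against the background the share of coding-exon sites was lower in the first step, at 2.477%, and higher in the second, at 2.302%. From ES to HB 22 of the 29 were higher at HB, and from HB to HE1 20 of the 27 were lower at HE1. Over all sites tested, 2.358% were higher and 1.098% lower at that threshold from ES to HB, and 0.7965% were higher and 1.07% lower from HB to HE1, so the larger direction was the same. Without the 4 HE1 libraries no site passed the adjusted threshold either, and 22 of 1055 coding-exon sites from HB to HE1 and 3 of 1148 from HE1 to HE2 passed the unadjusted one.

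Positive and Negative cells were compared in the same way. The adjusted threshold was passed by 0% of sites at ES, HB, HE2 and HP, and at HE1 by 1 site, which was a coding-exon site (0.013% of all). That count was 0 without the 4 HE1 libraries, without replicate 1, 2 or 5 and without a trend in the prior variance of limma. Without the 4 libraries, however, only 1229 sites were left to test, 175 of them coding-exon sites, against 7708 and 933 with them. At an unadjusted p under 0.05, 10 of 734 coding-exon sites passed at ES (1.76% of all sites), 4 of 947 at HB (0.699%), 1 of 933 at HE1 (0.013%), 1 of 628 at HE2 (0.065%) and 2 of 583 at HP (0.211%). Between high and low gates the adjusted threshold was again passed by 0% of sites at ES, HB, HE2 and HP and by 1 at HE1, also a coding-exon site (0.0183%). The unadjusted numbers were 2 of 554 at ES (1.27% of all sites), 18 of 726 at HB (2.05%), 1 of 696 at HE1 (0.0365%), 0 of 720 at HE2 (0.0177%) and 0 of 325 at HP (0.0481%). All 18 at HB were higher in the high gates, as were all 88 sites of any class that passed there. The high sets joined the Medium and High libraries, and in HB replicate 3 they listed 11577 distal fragments against 414 in Low. A site could thus enter the test through the high sets alone, as Rusc2 did with a mean of 0 in Low. The shared direction is therefore not read as a difference between gates.

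The site called between gates at HE1 was the Phf19 site, at chr2:34904619-34905614, which crosses coding exon 5 of 14 and an annotated transcript start. In low gates the fragments per 10000 were 4.314, 3.798, 10.38, 0 and 16.52 in replicates 1 to 5 (26, 15, 2, 0 and 2 fragments), and in high gates 2.251, 3.132, 5.003, 0 and 0 (42, 52, 1, 0 and 0 fragments). Low gates were higher in 4 replicates and both were at 0 in replicate 4, with overlapping ranges. The limma difference was -1.196 on the log2 scale with a fitted SE of 0.2664 and an adjusted p of 0.03964, against an SE of 0.8868 from the replicates themselves and an exact permutation p of 0.2063 (n = 5 and 5). Without replicate 5 it was -0.462 with a limma adjusted p of 0.9903. Without the trend in the prior variance the limma adjusted p was 0.9886, and without the 4 HE1 libraries, which include the empty Low list of replicate 4 at this site, the difference was -1.753 with a limma adjusted p of 1.287e-12.

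Phf19 was listed at 3 of the 5 stages. Positive cells listed 34, 39, 14, 0 and 2 fragments at ES, 61, 62, 3, 0 and 2 at HE1 and 42, 33, 3, 0 and 0 at HE2 in replicates 1 to 5. No fragment was listed at HB or HP in any replicate, in positive or in Negative cells. The pDONR lists nevertheless held 495 Phf19 fragments for HB and 689 for HP, against 226 for ES and 667 for HE1. Negative cells listed 28 fragments of the site at ES and 62 at HE1. Why no list of HB or HP held the site was not tested. From ES to HB the limma difference was -2.054 on the log2 scale, with an adjusted p of 0.9992.

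Named next are sites from the 10 that were positive most widely. Ngfr led with 22 of 25 positive sets and 13 Negative sets, over coding exon 3 of 6 at chr11:95577443-95578356. It had 8, 9, 1, 2 and 1 positive fragments at ES, 8, 7, 1, 1 and 0 at HB, 7, 12, 1, 5 and 2 at HE1, 9, 3, 1, 1 and 1 at HE2 and 10, 4, 0, 0 and 1 at HP. Its 95 positive fragments, counted once per set, came from every stage and from both deep and shallow replicates. The nearest transcript start was 9379 bp away. The fragment shown above was in 17 libraries, mostly of replicates 3 to 5 and some of them Negative. It was the only positive fragment of HE1 and HE2 in replicate 3, of HB and HE2 in replicate 4 and of HE2 in replicate 5. The number of sets thus rests in part on 1 recurring fragment. Acacb and Nup160 were positive in 20 sets each. Acacb, the acetyl-CoA carboxylase of mitochondria, and Nup160, a nuclear pore subunit, were touched at a start codon, with 47 and 161 coding bases. Acacb and the Ssc4d, Spaca6, Kdm2a, Ppfia3 and Nos3 sites named below each crossed an annotated transcript start. Clec11a lay 1427 bp and Nup160 1596 bp from one.

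Clec11a, which encodes a secreted growth factor of blood and bone progenitors, had the largest number of positive fragments among the 10 leading sites, 434 in 19 sets. Its site covered 443 bases of the last coding exon with the stop codon, at chr7:44304513-44305475. Ssc4d, Spaca6, Kdm2a and Ppfia3 were also positive in 19 sets, with 180 to 311 positive fragments. Kdm2a encodes a demethylase of histone H3 at lysine 36, and Ppfia3 a liprin of synapses. Nos3 was the last of the 10, with 121 positive fragments in 19 sets over coding exon 25 of 26 and the stop codon at chr5:24383136-24384209. Its positive fragments numbered 16 at ES, 18 at HB, 44 at HE1, 17 at HE2 and 26 at HP, and its Negative fragments 10, 8, 15, 7 and 12, so positive fragments were the more numerous at each stage although the positive gates also held more libraries.

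Of the 16 sites on blood transcription factor genes 5 were positive at all 5 stages, and the median was 4 sets. The 4 positive in most sets are named here. Spi1 was positive in 13 sets through its last coding exon, 5 of 5, at chr2:91115108-91115617, with 1, 3, 3, 0 and 0 fragments at ES, 14, 9, 0, 0 and 0 at HE1 and 6, 3, 0, 0 and 1 at HP. It was in 14 Negative sets as well. Tal1 was positive in 12 sets through its first coding exon, at chr4:115062783-115063565, with 3, 1, 0, 0 and 0 fragments at ES, 7, 5, 0, 2 and 0 at HE1 and 10, 3, 0, 0 and 0 at HE2. Lyl1, a bHLH relative of Tal1, was positive in 12 sets through its last coding exon, and Tcf4, an E protein that pairs with such factors, in 12 sets. All 4 named sites were positive at all 5 stages. The Tcf4 site crossed an annotated transcript start, and Spi1, Lyl1 and Tal1 lay 2527, 2622 and 3275 bp from one.

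Among blood surface genes, Itga2b, the CD41 integrin used to sort HE2 and HP, held the leading sites. A site over coding exon 27 of 30 at chr11:102455658-102456499 was positive in 15 sets, with 12 fragments at ES, 22 at HB, 24 at HE1, 17 at HE2 and 24 at HP. A second over exon 4 of 30 at chr11:102466576-102467896 was positive in 13 sets. Coro1a, an actin regulator of leukocytes, was positive in 12 sets. An annotated transcript start lay in the Coro1a site and in both Itga2b sites. Both Itga2b sites had fragments at ES and HB, stages before the CD41 gate, in positive and in Negative cells. Negative cells listed 4 fragments of the first site at ES and 9 at HB. For the second site positive cells listed 10 at ES and 19 at HB, and Negative cells 14 and 7.

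Kdr had no fragment at ES. The gene encodes FLK1, the receptor used to sort HB, and its site over coding exon 10 of 30 lay at chr5:75961946-75962902, 15556 bp from the nearest start. Positive cells listed 0 fragments in all 5 ES replicates, 7, 5, 1, 0 and 0 at HB, 10, 12, 0, 0 and 0 at HE1, 9, 6, 1, 0 and 0 at HE2 and 5, 1, 0, 1 and 1 at HP. Negative cells also listed 0 at ES. The pDONR lists held 1 Kdr fragment for ES, 27 for HB, 179 for HE1, 134 for HE2 and 81 for HP, so the ES plasmid pool itself nearly lacked the site. Notch4, an endothelial Notch receptor, differed in being positive in 14 sets at all stages through its last coding exon, with 19 fragments at ES and 31 at HE1. The Notch4 site crossed an annotated transcript start.

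The 3 pluripotency genes with a site were positive beyond ES. Klf4 was positive in 17 sets at chr4:55529984-55531074, where 985 of 1091 bases (90.28%) were coding. Its fragments numbered 10 at ES, 11 at HB, 19 at HE1, 12 at HE2 and 11 at HP. Sall4, a zinc-finger factor of ES cells, was positive in 16 sets with 9 fragments at ES and 16 at HE1, but coding sequence made up 3.32% of its site. Tbx3 was positive in 10 sets through coding exon 7 of 8. The Sall4 and Tbx3 sites crossed an annotated transcript start, and Klf4 lay 696 bp from one.

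Mesoderm and cardiac genes had few fragments. Nkx2-5, a homeobox factor of the heart, was positive in 7 sets through its last coding exon, with 1, 4, 2, 0 and 0 fragments at HB, 1, 1, 0, 0 and 0 at HE2, 3, 3, 0, 0 and 0 at HP and 0 at ES and HE1. Gata4 had adjacent sites on its first coding exon, positive in 3 sets and in 1, with fragments at HB and HP. Gsc, a homeobox gene of the organizer, had 1 fragment at HP.

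Tead3 and Nf2 differed in the stages at which they were positive. Tead3, a DNA-binding partner of YAP, had a site over its start codon with 3 fragments at ES, 11 at HB, 0 at HE1, 0 at HE2 and 10 at HP, and a site over its stop codon with 5 at ES, 6 at HB and 0 later. Nf2, the merlin tumour suppressor upstream of YAP, had 0 at ES and HB, 10 at HE1, 12 at HE2 and 3 at HP. The Nf2 site crossed an annotated transcript start. The pDONR lists held 76, 79, 24, 19 and 34 fragments of the first Tead3 site from ES to HP, 83, 85, 45, 53 and 77 of the second, and 6, 6, 58, 83 and 54 of the Nf2 site. The plasmid numbers of the second Tead3 site thus stayed high at HP, where no positive fragment was listed. Tead1 had 1 positive fragment at ES and 6 at HE1, with 29 and 9 fragments in the pDONR lists.

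Within the chromatin regulator list, which does not hold Kdm2a, Kdm6b was positive in most sets. It encodes a demethylase of histone H3 at lysine 27 and was positive in 15 sets through coding exon 16 of 20 with 13 fragments at ES and 30 at HE1. Ezh1, a catalytic subunit of PRC2, was positive in 11 sets at all stages with 3 to 5 fragments at each. Both the Kdm6b and the Ezh1 site crossed an annotated transcript start.

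**Figure D5:**
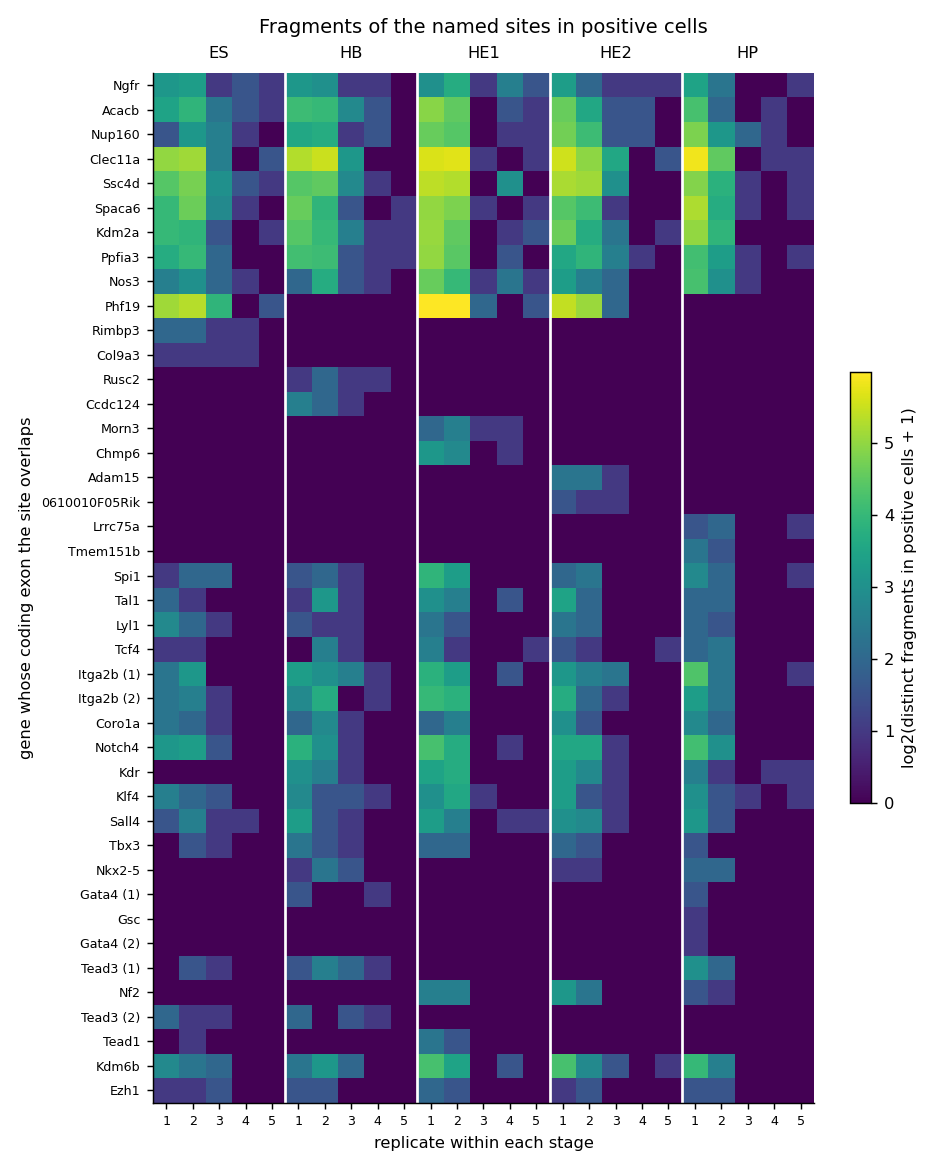
Colour gives log2 of the number of distinct fragments in positive cells plus 1 for each named coding-exon site (vertical axis, by gene) in each replicate of each stage (horizontal axis). Ngfr has a fragment in 22 of 25 columns, and Phf19 is empty in all HB and HP columns.

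Sites positive at 1 stage alone in the most replicates held at most 15 fragments. Rimbp3, a gene with a single coding exon, had 3, 3, 1, 1 and 0 fragments at ES over an 878 bp site that was coding throughout, and Col9a3, a chain of cartilage collagen, had 1 fragment in each of 4 ES replicates. Rusc2 was positive in 4 HB replicates with 1, 3, 1, 1 and 0 fragments in a wholly coding site of 409 bp, and Ccdc124 in 3 with 5, 3 and 1. These 4 sites had no positive fragment at the later stages, although the HE1 pDONR list held 116, 18, 13 and 69 of their fragments. Negative cells of the same stage listed 2 fragments for Rimbp3 and 4 for Ccdc124, and 0 for Col9a3 and Rusc2.

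The later stages had sites of the same kind. Morn3 had 3, 5, 1, 1 and 0 fragments at HE1, and Chmp6, a subunit of the ESCRT-III complex, had 8, 6, 0, 1 and 0. Negative HE1 cells listed 4 and 9 fragments of these sites. Adam15, a membrane metalloprotease, had 4, 4, 1, 0 and 0 at HE2, and 0610010F05Rik had 2, 1, 1, 0 and 0. Lrrc75a had 2, 3, 0, 0 and 1 at HP, and Tmem151b, wholly coding over 669 bp, had 4, 2, 0, 0 and 0. For Chmp6 the pDONR numbers were 11 for ES, 16 for HB and 120 for HE1, and for Adam15 4, 10 and 86, whereas Tmem151b was even, at 47 to 69 in all stages.

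Coding-exon sites differed in base composition from the other classes. Over the 300 bp around the centre of each site, the median GC content was 56.33% against 50% for both intronic and intergenic sites, with medians of 8 CpG against 3 and 4. Where 50% or more of the window was coding, GC reached 60.67%. The letters of 8 motifs were searched on both strands, and a match is a description of the sequence and not a bound site.

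The letters for AP-1, GATA, RUNX, TEAD and OCT stood at lower shares in coding-exon windows than in the other classes, which was not tested. TGANTCA, the AP-1 motif, was in 9.082% of coding-exon windows against 16.83% of intronic, 16.91% of intergenic and 16.09% of all windows. The letters for GATA factors, AGATAA, were in 9.827% against 19.27%, 19.28% and 18.24%, those for RUNX (TGTGGT) in 21.34% against 26.91%, 25.26% and 25.52%, and those for TEAD (CATTCC) in 14.68% against 20.05%, 20.19% and 19.58%. ATGCAAAT (OCT) was in 0.7208% against 1.654%, 1.825% and 1.633%. Letters for ETS factors and the E-box stood higher: CCGGAA (ETS) was in 8.722% against 4.62%, 5.646% and 5.546%, and CAGCTG (E-box) in 25.95% against 22.54%, 22.37% and 22.77%. GGGTGTGG (KLF) was in 3.436% of coding-exon and 3.663% of all windows.

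The motifs varied with stage within the coding-exon sites. Among the 178 sites positive at HE1 alone, AP-1 letters were in 17.42% and TEAD letters in 25.84%, with a median GC of 51.67%. Without the 4 HE1 libraries they were in 17.57% and 25.68% of 148 sites. Among the 374 positive at ES alone they were in 6.15% and 16.04%, and among the 374 positive at HB alone in 5.348% and 12.03%, with GC medians of 58% and 58.67%. RUNX letters were most frequent in the sites of HE2 alone (28.28% of 145) and HP alone (25.2% of 254), against 15.51% at HB alone. In intronic sites AP-1 letters were also most frequent at HE1 alone (24.42%) and least at HB alone (9.967%). The other letters differed in order: intronic TEAD letters were at 24.92% at ES alone and 24.27% at HE1 alone, and intronic RUNX letters at 36.37% at HP alone and 34.54% at HE2 alone. These shares were not tested, and base composition moved with them.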

How the data were processed

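The libraries were made by PCR from sorted cells without molecular identifiers. According to the methods and labels, the authors trimmed reads with Trim Galore, aligned them to mm10 with Bowtie2, removed duplicates, and kept fragments found in the plasmid lists, absent from HM-1 controls and inside ATAC-seq peaks, calling those over 1.5 kb from a transcription start distal. The deposited lists of sorted cells hold coordinates of distinct fragments and no read numbers. The 10 plasmid and 3 HM-1 lists deposited by the authors also give a read count per fragment, used here for identity and, in the tables, a weighted share. Of the listed distal fragments, 85.5% had an exact plasmid match.

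Starts were moved by 1 bp to match the plasmid lists, overlapping fragments were merged, and sites were classed with GENCODE M21 in the order coding-exon, other exonic, intronic and intergenic. Sequences came from the RefSeq GRCm38 genome (samtools 1.23.1). Positive sets were unions of the Low, Medium, High and Medium/High lists of a stage and replicate. Percentages were compared by exact two-sided permutation tests (5 against 5, smallest p 0.007937) or exact sign-flip tests, adjusted by Benjamini-Hochberg within 4 or 5 tests. Single sites were fitted with limma 3.58.1 in R 4.3.3 on all sites with a fragment in at least 4 sets, with a prior variance following the mean, and adjusted over all sites tested. Scripts were tested on simulated data, where limma called few of the differences put in at the depth of these lists, so a count of 0 does not show that sites did not differ. Python 3.11.15, pandas 2.3.3 and numpy 2.4.6 were used. Promoter lists were counted once and entered no comparison.

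The members, gene lists, motifs and tests were chosen with earlier results of these data known. Named sites were the 10 positive in most sets, the 10 genes with most sites, up to 3 sites per direction past the limma threshold, 2 sites per stage positive at that stage alone, up to 4 sites per gene list, and the Phf19 site. Genes of the families found by symbol were counted and not named, and some sites that the rule names are not reported here. Alternatives were 50 bp or 50% coding overlap, other denominators, fragments instead of sites, sites near transcript starts left out, starts as deposited, plasmid-identical fragments, HM-1 fragments removed, means over libraries, other gates, widths of 200 to 400 bp, at least 2 fragments, 0.25 added before log2, filters of 1 or 6 sets, a replicate block and leaving out each replicate. A limma fit without the trend in the prior variance, and the percent of sites and the limma fits without 4 HE1 libraries with shared lists, were added after seeing the data. Percentages are over listed fragments, and no interval is given for them, since PCR fragments and merged lists are not independent molecules.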

Additional observations from a re-analysis of the deposited data

Results flagged for a closer look

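In 4 groups of 5 replicates 1 value of the percent of distal fragments in coding-exon sites stood far from the others, and all 4 were replicate 4. The HE1 positive set of replicate 4 was at 15.62%, with a gap to its nearest neighbour of 0.832 of the group's range, and its high gates stood at 15.84% (0.764) and its Low gate at 15.66% (0.758). The HE2 high gates of replicate 4 stood at 14.09% (0.737). HE1 Low replicate 4 is also the library that shared 83.04% of the smaller list with HE1 Negative replicate 3. Chance alone marks about 1 in 20 separate groups, and 26 groups were examined, some of which share libraries. The HE1 positive set joins its high and Low gates, and in replicate 4 it listed 3080 distal fragments and its Low gate 2586. The HE1 flags are thus not independent. Without replicate 4 the HB to HE1 difference was -3.357 percentage points (exact permutation, adjusted p = 0.1143).

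The promoter lists, which entered no comparison, held 1447 fragments whose midpoint lay in a coding-exon site. They were 0.09194% of 1573812 promoter-list fragments, from 79 libraries, and lay in 108 sites.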

How the results depend on the processing

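Of the alternatives for the percent of fragments, 222 kept direction and side of the threshold, 25 turned the direction and 1 passed the threshold newly. The one that newly passed used only plasmid-identical fragments (HB to HE1, -3.275 points). The 26 for the percent of sites kept direction, but none could cross the threshold, since 5 pairs or fewer cannot pass 0.05. With coding sequence over 50% of the site, the difference over intronic sites was 3.996 points, higher in 4 of 5 replicates. Over intergenic sites it was then 2.642 points, higher in 3 of 5. Every turned difference had failed the test before and after. Positive minus Negative turned to 0.227 at HP with High and Medium/High only. With 50 bp of coding overlap high minus low turned to -0.439 at HB and -0.0291 at HP. With coding over 50% of the site HE1 to HE2 turned to -0.0109 and HE1 high minus low to -0.0567. Counting fragments that overlap coding sequence gave -0.274 (ES) and -0.134 (HB) for positive minus Negative and -0.0465 (HE1) and -0.528 (HP) for high minus low. Against intronic sites alone ES positive minus Negative was -0.0375, and against intergenic sites alone HB was -0.170, with high minus low at -0.450 (ES) and -0.637 (HP). With sites near starts left out, positive minus Negative was -0.368 (ES) and 0.273 (HP), and high minus low -0.0567 (ES) and -0.378 (HB).

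Leaving out each replicate in turn, the difference ran from -1.944 to -0.5248 for ES to HB, from -0.211 to 0.838 for HE1 to HE2, from -2.343 to -0.4915 for HE1 positive minus Negative and from -0.246 to 0.865 for HB positive minus Negative. High minus low ran from -0.387 to 0.778 at ES, -0.537 to 0.499 at HB, -0.0164 to 0.606 at HE1 and -0.310 to 1.027 at HP. The cause of these changes was not tested.

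Counts of coding-exon sites called by limma kept within 1.5 times in 134 alternatives and moved in 24. With a fragment in at least 1 set the count was 1 in the HB to HE1 step, 2 in HE1 to HE2 and 2 in HE2 to HP, 1 for positive against Negative at HB, 2 at HE1 and 1 at HE2, and 2 for high against low at HE1. Leaving out each replicate in turn gave 0 to 2 from HE1 to HE2 and 0 to 1 at HE1 in both gate comparisons. At HE1 both counts were 0 with 0.25 added, with at least 6 sets, without the variance trend and with the replicate block, and that of positive against Negative cells was 0 without the 4 HE1 libraries. The Phf19 call also ended without replicate 1, 2 or 3.

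Same-numbered samples correlated above 0.1 in all 5 pairs in 2 of 14 comparisons. The lowest value, -0.00466, was that of replicate 3, and replicate 5 fell to 0.0875 from HE2 to HP. Replicates 1, 2 and 4 lay at 0.135 or more in every comparison, with 0.516 as the highest. The numbers were not taken as pairs in the main tests, so an effect shared by same-numbered samples stays in their spread. With the replicate block the limma adjusted p was 0.6052 for Phf19, and the exact sign-flip test gave an adjusted p of 0.3333 for each step of the share other than HE1 to HE2 (0.6875), where 5 pairs cannot reach 0.05. Replicates 3 to 5 are too shallow to list most sites, so a site missing from them is not shown to be inactive.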
